A study of Mus musculus with 4 samples.

Results

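The miR-29 family of mouse CD4+ T cells was described across ASO-transfected and CRO-transfected cells. Its members were taken by name, as the 7 mature arms made from the 2 miR-29 loci, and all 7 were among the 1073 miRNAs of the authors' deposited table. Small RNA was sequenced from naive CD4+ T cells of wild-type mouse spleen. The cells received ASO (2 samples) or CRO (2 samples), were stimulated with antibodies to CD3 and CD28, and were harvested after 48 h. The series text names CRO as the control of ASO, while the authors' summary of called miRNAs lists ASO as control and CRO as case. Neither name is expanded in the labels. No untransfected or unstimulated cells, no mouse strain and no animal age are given. Whether each sample is a separate mouse or culture is not stated, so spreads and p-values measure these samples only and may be technical.

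A miRNA hairpin is cut into a duplex, of which usually the more abundant arm (the guide) is loaded into Argonaute and the other (the passenger) is degraded. miR-29 guides are the 3p arms. In mouse CD4+ T cells they are known to repress the mRNAs of T-bet (Tbx21) and Eomes, the transcription factors that drive interferon-gamma production, and of interferon-gamma itself (Ifng), and so to restrain T helper 1 responses. Other known targets include the DNA methyltransferase Dnmt3a and the survival factor Mcl1.

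The mature sequences show which members can act alike. They were taken from RefSeq (GRCm38.p6) and matched for 7 of 7 members. Capitals mark the seed, bases 2 to 8, through which a miRNA finds its targets. The 3p arms are given first.
mmu-miR-29a-3p: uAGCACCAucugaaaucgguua
mmu-miR-29b-3p: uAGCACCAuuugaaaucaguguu
mmu-miR-29c-3p: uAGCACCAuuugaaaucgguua
mmu-miR-29a-5p: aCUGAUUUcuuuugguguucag
mmu-miR-29b-1-5p: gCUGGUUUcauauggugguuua
mmu-miR-29b-2-5p: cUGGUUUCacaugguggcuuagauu
mmu-miR-29c-5p: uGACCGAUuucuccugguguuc

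The 3p arms shared 1 seed, and no other mature mouse miRNA of the RefSeq table carried it. The 5p arms had 4 different seeds. Counted from 1 at the 5′ end, miR-29a-3p and miR-29c-3p differed only by C10U. miR-29c-3p and miR-29b-3p differed by G18A, U21G and A22U over their first 22 bases, and miR-29b-3p was 1 base longer. How the authors' counting assigned reads with a sequencing error or a trimmed 3′ end is not given in the sources used here, so values of miR-29a-3p and miR-29c-3p may include reads of each other.

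The 4 hairpins lie in pairs. In GRCm38, Mir29a (chr6:31062660-31062747) and Mir29b-1 (chr6:31063023-31063093) are on the minus strand with 275 bases between them. GENCODE M21 places no longer gene over Mir29a, while the end of Mir29b-1 touches an exon of the long non-coding RNA Gm27019 on the same strand. Mir29b-2 (chr1:195037040-195037120) and Mir29c (chr1:195037547-195037634) are on the plus strand with 426 bases between them. Both lie in an exon of the non-coding transcript A330023F24Rik and, on the opposite strand, in an untranslated part of an exon of Cd46. These positions are of the reference build, since the submitters' processing notes name mm9 and the deposited tables carry no coordinates. The hairpins Mir29b-1 and Mir29b-2 are shown because the same 3p arm comes from both, so that only the 5p arms tell the loci apart. Capitals mark the mature arms.
Mir29b-1: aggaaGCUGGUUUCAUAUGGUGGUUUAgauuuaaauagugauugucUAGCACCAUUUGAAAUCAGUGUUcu
Mir29b-2: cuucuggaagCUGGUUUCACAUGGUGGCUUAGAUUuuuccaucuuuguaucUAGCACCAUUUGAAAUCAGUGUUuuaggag

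The letters opposite the shared seed are TGGTGCT, and TGGTGCTA also matches the first base of the guide. In 3′ untranslated regions of GENCODE M21 principal transcripts, read on the mRNA strand, the 7-letter motif was found in 12.2% of 20718 genes and the longer one, which contains it, in 2.71%. Tbx21 held 1 match (bases 219 to 225 of 701), and among regions within 20% of its length 7.69% held any. Eomes held 1 (bases 798 to 804 of 1120; 10.6% of regions of like length) and Ifng 1 (bases 519 to 525 of 631; 7.46%). Dnmt3a held 5 matches in 6696 bases, 2 of them to the longer motif, and 47.5% of regions of like length held at least 1. Mcl1 held 1 match, to the longer motif (bases 1036 to 1043 of 2353; 21.5% of regions of like length held the 7-letter one). These are letter matches in a reference, and target mRNAs were not analysed here. The matches of the T helper 1 genes are shown with their surroundings, the motif in capitals.
Tbx21: ctacagtcacgaaccTGGTGCTgcttctga
Eomes: aaaataatgtaaattTGGTGCTttggcgtt
Ifng: aagagacttgacaccTGGTGCTtccctata

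The deposited table gives group means of counts divided by the authors' size factors (normalized counts). Counts of each library were decoded from those means, and the decoded libraries are called a and b because their replicate numbers are not known. Totals were 10192717 and 10483405 counts for the ASO libraries and 5617699 and 3300457 for the CRO libraries. Libraries of a group differed by a median absolute log2 ratio of 0.23 (ASO) and 0.39 (CRO) over 273 miRNAs whose base mean, the authors' average of all 4, reached 100. As a check of the labelled cells, the markers miR-142a-3p, miR-142a-5p, miR-150-5p, miR-155-5p and miR-181a-5p, which T cells share with other blood cells, summed to between 1990313 and 2240071 normalized counts in ASO and between 1852196 and 1930520 in CRO. Sums of markers of other cells were far lower, though not every single marker was. The myeloid miR-223-3p had authors' means of 5604 in ASO and 6665 in CRO, beside 5112 and 8009 for miR-181a-5p of the blood list. The 3 erythroid markers summed to 1313 to 1581 in ASO and 2228 to 2409 in CRO. The 2 myeloid ones summed to 5599 to 5669 in ASO and 6189 to 7239 in CRO. The 2 endothelial ones summed to 1687 to 2334 in ASO and 1399 to 1935 in CRO, and the 3 epithelial ones to 2433 to 2823 in ASO and 2988 to 3823 in CRO. The 4 fibroblast and muscle ones summed to 46.4 to 52.3 in ASO and 50.3 to 85.7 in CRO, and the hepatocyte marker miR-122-5p had 75.0 to 84.4 in ASO and 25.2 to 35.8 in CRO. miR-145a-5p, a defining smooth muscle marker, had 0 reads in both CRO libraries. Within the blood list miR-181a-5p went the other way from the sum, with 4946 and 5277 in ASO against 7143 and 8874 in CRO, and miR-150-5p had an authors' log2 ratio of -0.45. The erythroid, myeloid and epithelial sums were lower in both ASO libraries than in both CRO libraries. The blood sum and miR-122-5p were higher in both ASO libraries. Of the 482 miRNAs whose base mean reached 10, 41.9% likewise had groups that did not overlap. The part of these cell types in the miR-29 values was not tested. In bulk RNA, fewer cells of a type and less RNA per cell cannot be told apart.

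The summed level of the miR-29 guides differed between ASO and CRO by less than the spread between libraries, and miR-29a-3p made up most of it. The 3p arms summed to 320653 and 419103 normalized counts in the ASO libraries, against 392198 and 326060 in the CRO libraries. The groups overlapped, with the highest and the lowest of the 4 values both in ASO. On the log2 scale the mean was 18.48 ± 0.27 in ASO and 18.45 ± 0.19 in CRO (SD, n = 2 each), a difference of 0.04. Leaving out 1 library gave between -0.16 (without ASO library b) and 0.23 (without ASO library a). Ranked by the summed base mean of all miRNAs with the same seed, miR-29 was 6th of 771 seeds, over the 890 miRNAs of the table that had a RefSeq sequence. The 7 members took 5.14% and 5.70% of all counts in the ASO libraries, against 5.47% and 5.52% in the CRO libraries.

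mmu-miR-29a-3p, the dominant guide, had 290988 and 381640 normalized counts in the ASO libraries, against 361474 and 303862 in the CRO libraries. The lower and the higher ASO library lay outside the CRO values on either side. In the authors' deposited table its log2 ratio of ASO over CRO was 0.02 (adjusted p = 1), and it was the 6th most counted miRNA in each group. let-7f-5p ranked just above it over all libraries, with authors' means of 357383 in ASO and 372478 in CRO. miR-142a-5p ranked just below, with 299744 in ASO and 299620 in CRO. These gaps in level are within the distance between the libraries of a group. Each read stands for 1 mature miRNA of nearly the same length, so levels of different miRNAs are compared as counts, although sequences can be captured with unequal efficiency.

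mmu-miR-29b-3p, the guide made by both loci, had 25194 and 30987 normalized counts in the ASO libraries, against 22833 and 17732 in the CRO libraries. Both ASO libraries were above both CRO libraries. The ASO mean was 28091 ± 4096 and the CRO mean 20282 ± 3607 (SD, n = 2 each). The authors' log2 ratio was 0.47, a fold of 1.39 (p = 0.21, adjusted p = 1, authors' deposited table), and a limma fit of the decoded libraries gave 0.47 ± 0.25 (SE; adjusted p = 0.47).

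mmu-miR-29c-3p, the guide of the chromosome 1 locus, had 4470 and 6475 normalized counts in the ASO libraries, against 7891 and 4466 in the CRO libraries. The CRO libraries lay 0.82 apart on the log2 scale, the widest gap among the members, and the groups overlapped. In the authors' deposited table it stood at a log2 ratio of -0.17 (adjusted p = 1), and limma gave -0.14 ± 0.33 (SE).

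Among the passenger arms, mmu-miR-29b-1-5p had the log2 ratio furthest from 0. mmu-miR-29b-1-5p had 671.5 and 518.3 normalized counts in the ASO libraries, against 304.4 and 474.2 in the CRO libraries. The groups did not overlap in normalized counts, though they did as shares of library totals. The nearest values, 518.3 in ASO and 474.2 in CRO, were closer together than the libraries within either group. Its authors' log2 ratio was 0.61, a fold of 1.53 in the authors' deposited table (adjusted p = 1), and limma gave 0.63 ± 0.30 (SE; adjusted p = 0.45). It passed only in the limma fit without CRO library b, at a log2 ratio of 0.95 (adjusted p = 0.043), where the ASO pair alone sets the variation. That fit called 6.43% of 482 miRNAs, 1.66% as higher in ASO, and the fit of all libraries called 3.11%.

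The other passenger arms had ratios nearer to 0. mmu-miR-29a-5p had 531.3 and 648.4 normalized counts in the ASO libraries, against 538.4 and 423.9 in the CRO libraries, with 0.29 as log2 ratio in the authors' deposited table (adjusted p = 1). mmu-miR-29c-5p had 124.8 and 164.6 in ASO, against 116.4 and 152.7 in CRO, and its ratio in the authors' deposited table was 0.11 on the log2 scale (adjusted p = 1). Both pairs of groups overlapped. mmu-miR-29b-2-5p, the rarest member, rested on 39 and 47 reads in the ASO libraries, against 22 and 16 in the CRO libraries. Its normalized counts were 24.0 and 33.1 in ASO, against 28.1 and 28.7 in CRO, and the authors' deposited table lists a log2 ratio of 0.0040 (adjusted p = 1). The exact Poisson 95% interval was 16.4 to 46.7 for CRO library b, which covers the values of the other libraries. Such intervals cover counting error only.

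**Figure D1:**
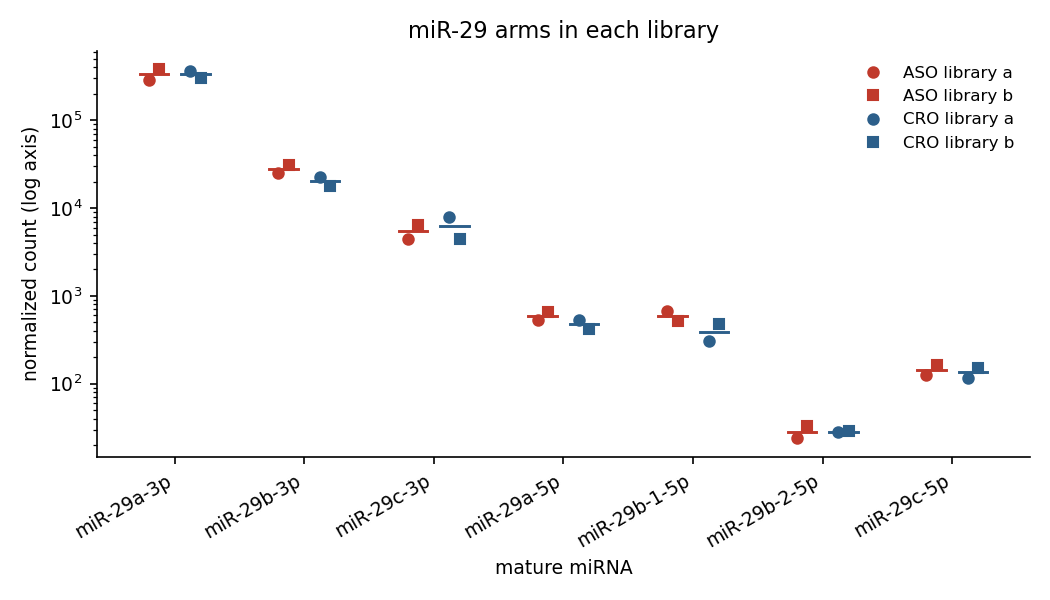
Normalized count (log axis) of each miR-29 arm in ASO libraries a and b (red) and CRO libraries a and b (blue), with bars at the group means. The members run from miR-29a-3p, between 290988 and 381640, to miR-29b-2-5p, between 24.0 and 33.1, and on this scale only miR-29b-3p and miR-29b-1-5p have both ASO points above both CRO points. As shares of library totals miR-29b-1-5p overlaps and miR-29a-5p does not.

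At an adjusted p under 0.05, the authors' deposited table called 0 of the 7 members and 1.21% of all 1073 miRNAs. All 13 called miRNAs were among the 482 that, like the members, reached a base mean of 10. At an unadjusted p under 0.05 the count was also 0 of 7, against 6.22% of the 482 miRNAs whose base mean reached 10. limma called 0 of 7 as well, with 0 at an unadjusted p under 0.05. At the adjusted p, limma also called 0 of 7 with no filter (1.4% of all miRNAs called), library totals (2.28%) and the upper quartile (2.49%), and 0 of the 6 members that reach a base mean of 50 (3.1%). It called 0 of 7 without ASO library a (0.83% called), ASO library b (2.07%) or CRO library a (13.1%). Among limma fits that kept every library, the count at an unadjusted p under 0.05 was 1 with no filter and 1 with the upper quartile. The share of all miRNAs at that unadjusted p was not taken for the limma fits, so these counts are not read as a result. By the authors' log2 ratio 6 members were above 0 and 1 below, with a median of 0.11, beside a median of 0.041 over the 482 miRNAs. In limma the count above 0 was 5, and it was 4 when libraries were scaled by their totals. In 2 members the groups did not overlap, both higher in ASO, while 41.9% of the 482 miRNAs had groups that did not overlap and 23.2% lay higher in ASO. As shares of library totals, chosen after the values were seen, the groups of 2 members did not overlap, against 36.1% of the 482 miRNAs, but they were miR-29b-3p and miR-29a-5p. mmu-miR-29a-5p then had 0.00848% and 0.00880% in ASO, against 0.00749% and 0.00715% in CRO, and mmu-miR-29b-1-5p, which overlapped, 0.0107% and 0.00703% in ASO, against 0.00424% and 0.00800% in CRO.

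**Figure D2:**
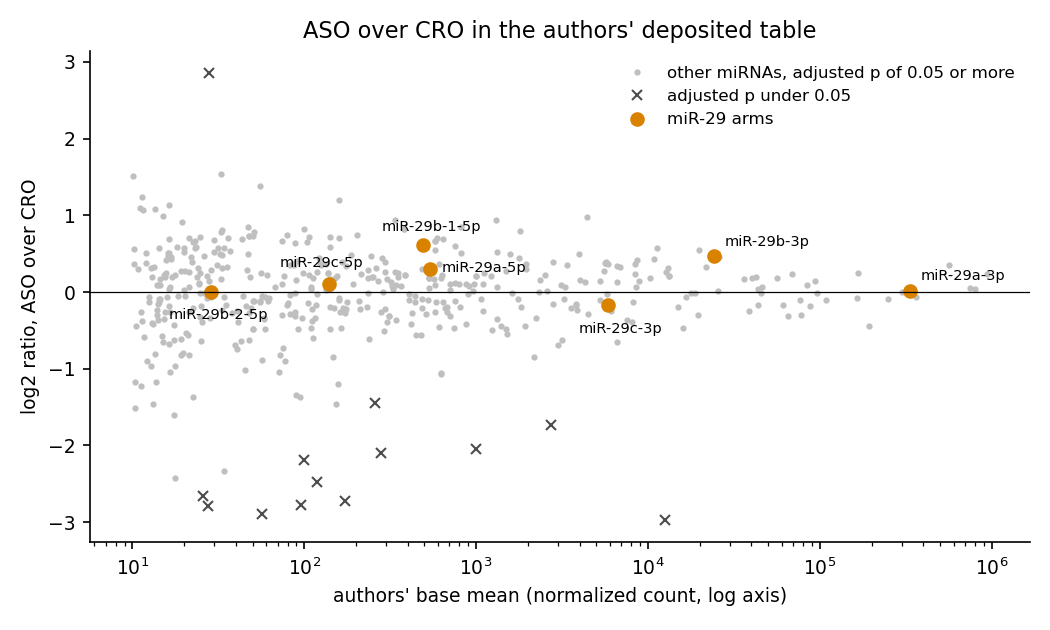
Authors' log2 ratio of ASO over CRO against the authors' base mean (log axis) for 482 miRNAs, those reaching a base mean of 10. The 7 miR-29 arms (orange) lie between -0.17 and 0.61, inside the spread of the miRNAs that did not pass (grey), and apart from the 13 that passed (crosses).

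Within the guide pool the share of miR-29b-3p was larger in both ASO libraries than in both CRO libraries. It made up 7.86% and 7.39% of the summed 3p arms in the ASO libraries, against 5.82% and 5.44% in the CRO libraries. The means were 7.63% ± 0.33 in ASO and 5.63% ± 0.27 in CRO (SD, n = 2 each), a difference of 1.995 percentage points that exceeds the distance between libraries of a group. An exact permutation test gave p = 0.333, the lowest that 2 against 2 allows (adjusted p = 0.666). Of 481 miRNAs, 34.9% had ratios to miR-29a-3p, the bulk of this pool, whose groups did not overlap. miR-29a-3p took 90.8% and 91.1% in ASO, against 92.2% and 93.2% in CRO. miR-29c-3p took 1.39% and 1.55% in ASO, against 2.01% and 1.37% in CRO, where the groups overlapped. Exact binomial 95% intervals of these shares were at most 0.12 percentage points wide on either side.

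Put as a ratio, each miR-29b-3p read stood beside 11.6 and 12.3 reads of miR-29a-3p in the ASO libraries, against 15.8 and 17.1 in the CRO libraries. Such a ratio within a library does not depend on how libraries are scaled. The log2 ratio of miR-29b-3p to miR-29a-3p was -3.58 ± 0.07 in ASO and -4.04 ± 0.08 in CRO (SD, n = 2 each). This ratio was chosen after its values were seen, and 34.9% of the 481 miRNAs other than miR-29a-3p had ratios to it whose groups did not overlap, 20.8% with ASO higher. miR-29b-3p reads per miR-29c-3p read were 5.64 and 4.79 in ASO, against 2.89 and 3.97 in CRO. This second ratio was also chosen after its values were seen, and the like share over all miRNAs was not taken for it.

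The 3p arms exceeded the 5p arms for every hairpin product in every library. For miR-29a there were 548 and 588 reads of the 3p arm per read of the 5p arm in the ASO libraries, against 671 and 717 in the CRO libraries. On the log2 scale this was 9.15 ± 0.07 in ASO and 9.44 ± 0.07 in CRO (SD, n = 2 each), a difference of -0.29 with groups that did not overlap. The ratio was 36.2 and 56.2 in ASO, against 68.7 and 35.2 in CRO, for miR-29b-3p over the sum of its 5p arms. It was 35.8 and 39.4 in ASO, against 67.8 and 29.2 in CRO, for miR-29c. Those groups overlapped, with the CRO libraries at both ends. Their log2 differences, -0.12 for miR-29b and -0.25 for miR-29c, were each 0.36 without CRO library a, and miR-29b stood at 0.19 without ASO library a. Among 114 hairpins whose arms both reached a base mean of 10, the median absolute log2 arm ratio was 4.03 and the median absolute difference between groups was 0.24. Mir29a ranked 16th of them by arm ratio and 47th by difference, and 32.5% of the hairpins had groups that did not overlap.

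**Figure D3:**
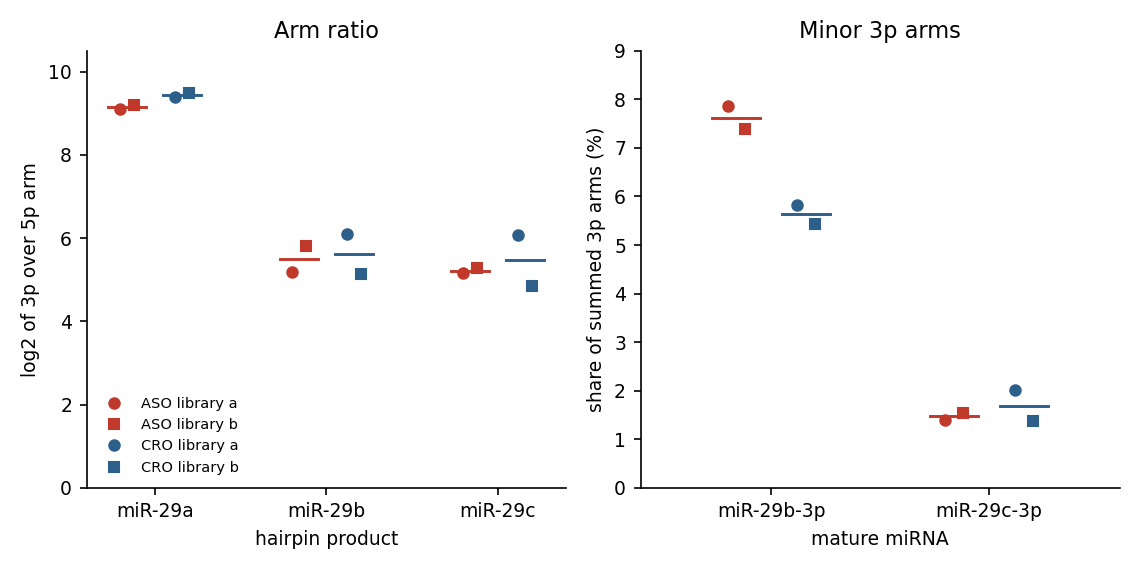
Left, log2 of the 3p over the 5p arm of each miR-29 product; right, share of miR-29b-3p and miR-29c-3p in the summed 3p arms (%), for ASO libraries (red) and CRO libraries (blue) with bars at the group means. The miR-29a arm ratio is lower in both ASO libraries, at 9.09 and 9.20 in ASO against 9.39 and 9.48 in CRO, and the miR-29b-3p share is higher in both, while the miR-29c points overlap.

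An exact two-sided permutation test of 2 libraries against 2 cannot give a p under 0.333. That value was reached by the miR-29a arm ratio and by the shares of miR-29a-3p and miR-29b-3p, each with an adjusted p of 0.666 over the 6 ratios and shares tested by permutation. The miR-29b and miR-29c arm ratios and the miR-29c-3p share gave p = 1 in the same permutation test.

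The 5p arms separate the 2 loci. Those of Mir29a and Mir29b-1 summed to 1203 and 1167 normalized counts in the ASO libraries, against 843 and 898 in the CRO libraries. Both ASO values were higher. The mean was 1185 ± 25.4 in ASO and 870.5 ± 39.2 in CRO (SD, n = 2 each), a log2 difference of 0.44. These SDs hold for the authors' size factors only. With libraries scaled by their totals the difference was 0.39, and miR-29b-1-5p, an arm of this sum, then had groups that overlapped. This sum was not tested. Of the 482 miRNAs whose base mean reached 10, 41.9% had groups that did not overlap, 23.2% with ASO higher. The sums of Mir29b-2 and Mir29c were 149 and 198 in ASO, against 145 and 181 in CRO, with groups that overlapped and a log2 difference of 0.08, which was -0.12 without ASO library b, -0.08 without CRO library a, 0.29 without ASO library a and 0.25 without CRO library b. miR-29b-1-5p took 96.6% and 94.0% of the miR-29b 5p reads in ASO, against 91.5% and 94.3% in CRO. Which hairpin gave the miR-29b-3p reads cannot be read from this, since the 5p arms may be kept to unequal degrees. The ratio of miR-29b-1-5p to miR-29a-5p, from neighbouring hairpins, was 1.26 and 0.799 in ASO, against 0.565 and 1.12 in CRO. In normalized counts their sum thus varied less between the libraries of a group than either arm did, with the higher arm changing between libraries. This depends on the scaling. As shares of library totals miR-29a-5p alone differed little within a group, at 0.00848% and 0.00880% in ASO, against 0.00749% and 0.00715% in CRO. The sum was not given per library on that scale.

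**Figure D4:**
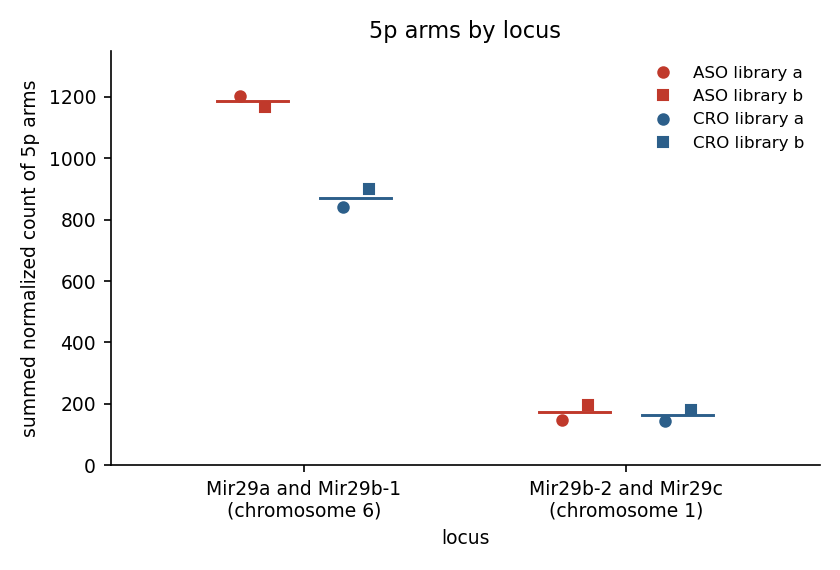
Summed normalized count of the 5p arms of the chromosome 6 locus (Mir29a and Mir29b-1) and the chromosome 1 locus (Mir29b-2 and Mir29c) in ASO libraries (red) and CRO libraries (blue), with bars at the group means. With the authors' size factors the chromosome 6 sums are 1203 and 1167 in ASO against 843 and 898 in CRO, and the chromosome 1 sums overlap.

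The members did not share a single pattern over the 4 libraries. Likeness to miR-29a-3p was measured as the Euclidean distance between centred log2(normalized count + 1) values, among 267 other miRNAs above a base mean of 100. The 3 nearest were miR-132-5p (distance 0.11), miR-16-5p (0.11) and miR-322-5p (0.13). In each of these, as in miR-29a-3p, ASO library b and CRO library a had the higher values. Of the family members above that level, miR-29a-5p was at 0.30, miR-29c-3p at 0.44, miR-29c-5p at 0.46 and miR-29b-3p at 0.48. miR-29b-2-5p, which is below that level and rests on 16 to 47 reads per library, was at 0.20, a distance its counting error does not let be ranked. miR-29b-1-5p, at 1.04, was further from miR-29a-3p than most of the 267. These distances over 4 libraries are descriptions and share the libraries' scaling.

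Other miRNAs described as acting on T helper 1 differentiation or interferon-gamma were set beside the family. Of 13, the authors' deposited table called 0 at an adjusted p under 0.05, against 1.21% of all 1073 miRNAs (13 of the 482 whose base mean reached 10). At an unadjusted p under 0.05 it had 0, against 6.22% of the 482 miRNAs, and limma called 0, against 3.11%. 10 had a log2 ratio above 0 and 3 below, beside 256 above and 226 below among the 482 miRNAs. The median was 0.19, beside 0.041 over the 482. Among those known to promote T helper 1 responses, miR-155-5p had authors' means of 1014554 in ASO and 865313 in CRO (log2 ratio 0.23). miR-17-5p and miR-19b-3p of the miR-17-92 cluster had 0.43 and 0.18. miR-146a-5p, a brake on NF-kB, had 159384 in ASO and 168235 in CRO (-0.08). miR-24-3p, miR-27a-3p and miR-27b-3p, best known in T cells for restraining T helper 2 responses, had 0.19, 0.37 and 0.17. miR-148a-3p, which T-bet induces in mouse T helper 1 cells, had 0.26, and miR-182-5p, a regulator of Foxo1 in activated helper T cells, had 0.55. miR-210-3p, which hypoxia induces, had 0.49 and miR-21a-5p 0.05. The lowest were miR-10a-5p, with 2478 in ASO and 3811 in CRO (-0.62), and miR-125b-5p, associated in human cells with the naive state, with 240.5 in ASO and 341.6 in CRO (-0.51). Without CRO library a, limma called 2 of the 13, miR-19b-3p and miR-182-5p, in a fit that called 13.1% of 482 miRNAs.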

How the data were processed

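Per the labels' protocols, Trizol RNA went into Illumina TruSeq small RNA libraries. DESeq and mm9 are named in the submitters' processing notes. Aligner, trimming and miRNA annotation were not given in the sources used here. Deposited values are normalized signal (read counts over size factors, averaged per group), a fold ratio of CRO over ASO with its log2, both turned here to ASO over CRO, and the authors' p-value with its adjusted form. The authors' p-values were the main test. A deposited summary of called miRNAs (17 higher and 4 lower in CRO) has the same total as an unadjusted p under 0.05 with a fold of at least 2, which 21 miRNAs met. Whether these are the same miRNAs was not checked.

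Counts per library were decoded as whole-number pairs that give each mean to 15 significant digits, which worked for 1073 miRNAs in both groups. 1 ASO mean (miR-155-5p) allowed several pairs, and was settled by the pair whose median-ratio size factors matched the decoded ones to a relative tolerance of 1e-09. Size factors were 1.626 and 1.422 (ASO) and 0.782 and 0.557 (CRO). limma 3.58.1 (R 4.3.3, trend and robust) was fitted to log2(normalized count + 1) of the 482 miRNAs reaching a base mean of 10, a scale that understates changes of low miRNAs. edgeR and DESeq2 were not run on the decoded counts; limma-voom was the count-based alternative. Decoding and limma were tested on simulated data. The changes simulated for limma were larger than the log2 ratio of any member, so that test does not tell whether changes of the members' size would be found. Other steps used Python 3.11.15 (scipy 1.17.1, pandas 2.3.3, numpy 2.4.6). Members, lists and tests were chosen with earlier results of these data known. All 7 members and all 13 of the T helper 1 list are named, with the 3 miRNAs nearest in pattern to miR-29a-3p and its neighbours in level. No source used here names molecular identifiers, so PCR reads are not independent molecules and intervals cover counting error only.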

Additional observations from a re-analysis of the deposited data

How the results depend on the processing

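The main limits are 2 libraries per group and members that do not pass. No paired analysis was possible because replicate numbers cannot be tied to libraries decoded from group means. Of 83 alternative values of the 7 members, 67 had the same sign and the same call, 1 newly passed and 15 changed sign without passing in either. Of these 15, 7 came from other settings of limma. miR-29a-3p was at -0.05 with library totals. miR-29b-2-5p, at 0.0040 in the authors' table, was at -0.01 in limma-trend, with no filter and with a pseudocount of 0.5, at -0.0071 with a pseudocount of 10, at -0.04 with voom and at -0.07 with library totals. The other 8 came from leaving out 1 library. The ranges of the log2 ratio were then -0.19 to 0.20 for miR-29a-3p (-0.19 without ASO library b, -0.12 without CRO library b), -0.55 to 0.27 for miR-29c-3p (above 0 without ASO library a, at 0.13, or CRO library a), -0.24 to 0.21 for miR-29b-2-5p (below 0 without ASO library b or CRO library a, at -0.03) and -0.09 to 0.30 for miR-29c-5p (-0.09 without ASO library b or CRO library a). They were 0.29 to 0.66 for miR-29b-3p, 0.31 to 0.95 for miR-29b-1-5p and 0.12 to 0.47 for miR-29a-5p. Leaving out a library gave 0 to 1 called members and 0 to 2 called T helper 1 miRNAs. The log2 difference of the chromosome 6 5p arms was 0.39 with library totals and 0.54 with the upper quartile. Leaving out 1 library gave log2 differences of -0.16 to 0.23 for the summed 3p arms, -0.12 to 0.29 for the chromosome 1 5p arms, -0.60 to 0.36 for the miR-29b arm ratio and -0.85 to 0.36 for that of miR-29c, and -0.54 to 0.10 percentage points for the miR-29c-3p share. The summed 3p arms were at -0.02 with library totals. The direction of the shares and arm ratios whose groups do not overlap cannot turn when a library is left out.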
